A study of Mus musculus with 24 samples.

Results

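The libraries described here are ribosome footprints and total RNA from resting wild-type macrophages. They were chosen by their labels: the ribosome-protected fragment (RPF) library and the total RNA library of each of 6 wild-type cultures, 12 of the 24 libraries in the series. The macrophages were grown from bone marrow precursors of C57BL/6J mice aged 6 to 12 weeks, for 7 days in medium that contained M-CSF (20 ng/mL), through which precursors become macrophages; no further stimulus is named. Cultures 1 to 3 belonged to batch 1, culture 4 to batch 2 and cultures 5 and 6 to batch 3. The other 12 libraries came in the same way from 6 cultures of Apobec1 -/- mice (KO), which lack the cytidine deaminase Apobec1, and are used here only to see whether the wild-type ratios recur: KO culture 1 was in batch 1, cultures 2 to 4 in batch 2 and cultures 5 and 6 in batch 3. Whether cultures shared animals is not stated, so the p-values below measure only the spread between these cultures.

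Ribosome profiling digests the RNA that ribosomes do not cover and sequences the fragments that remain. Divided by the abundance of the same mRNA, the footprint count of a gene gives a relative measure of its ribosome load, usually called translational efficiency. The ratios below carry no correction for coding or transcript length, so they are not numbers of ribosomes per transcript. Well-studied exceptions to a uniform load are mRNAs with a terminal oligopyrimidine (TOP) tract, which encode ribosomes and elongation factors and are tuned by mTOR, mRNAs with upstream open reading frames that capture scanning ribosomes, and mRNAs with an iron-responsive element that a repressor protein binds when iron is scarce.

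TOP tracts lie at the very start of the transcript. The windows below lie within 50 bases of the annotated start of 5 such genes whose footprints were low against their RNA and of 2 genes, Gapdh and Pfn1, whose footprints were high, so that the letters can be seen beside the values given later. All come from RefSeq, build GRCm38.p6, are written 5′ to 3′ on the gene's strand, and have the longest unbroken run of C and T (on that strand only) within 50 bases of the start in capitals. They were chosen after the values were seen. Counted from the annotated start, the upper runs begin at -5 (Eef1a1), -1 (Rps6), -2 (Rps18), -4 (Rpl15) and -6 (Gnb2l1). Those of Gapdh and Pfn1 begin at -35 and -24. The capitals therefore mark a run near the annotated start and are not shown to be the TOP tract of the transcript.
Eef1a1, chr9:78481710-78481739, minus strand: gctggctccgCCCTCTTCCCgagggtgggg
Rps6, chr4:86857349-86857378, minus strand: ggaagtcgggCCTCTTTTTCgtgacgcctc
Rps18, chr17:33955648-33955677, minus strand: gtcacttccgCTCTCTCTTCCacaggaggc
Rpl15, chr14:18270968-18270997, minus strand: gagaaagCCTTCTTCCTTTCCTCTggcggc
Gnb2l1, chr11:48800347-48800376, plus strand: gaggccgCTCTTTCTTTTTCTCCacagggt
Gapdh, chr6:125165792-125165821, minus strand: tggtgcgtgcacaTTTCaaaaatgaggcgg
Pfn1, chr11:70654657-70654686, minus strand: cccgccccgccgCCCTTTgcaaataaaaat
The 5 upper windows hold runs of 10 to 17 pyrimidines, and the 2 lower ones runs of 4 and 6. A run of at least 8 pyrimidines is common: 39.3% of the 27025 genes with a RefSeq window held one in the same distance. Such windows were matched for 59 of the 80 ribosomal protein genes tested, under the 80% needed to describe the group, so a check of the run over the group is void. Among those matched, the values did not follow the run as the windows shown might: 50 of 59 held one, with a median log2 ratio of footprints over RNA of -0.88, and the others had a lower median of -1.39. Rpl26 had a run of 14 and a log2 ratio of 4.89, and Rplp0 a run of 7 and one of -2.65. Of 16 glycolysis genes, most of them high in footprints, 8 held a run (50%).

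Gene counts of the wild-type RNA libraries ran from 6331272 to 12059361 and those of the footprint libraries from 29561 (culture 6) to 3714912 (culture 4). The 2 footprint libraries of batch 3 held 29561 and 218074 counts, so results are also given for the 4 cultures of batches 1 and 2. A floor of 3 counts stood for 0.808 to 101 CPM (counts scaled by library size) in footprints and for 0.249 to 0.474 CPM in RNA, for counting error only. All 10 macrophage markers were found in every RNA library, with a summed level of 18020 to 45043 CPM. Neutrophil markers summed to 65.7 to 75.1 CPM in cultures 1 to 3 and to 522 to 634 CPM in cultures 4 to 6, monocyte markers to 148 to 381 CPM and lymphocyte markers to at most 9.69 CPM, and Cd3g, Mcpt4 and Hba-a1 were at 0 in every RNA library. The part of other cells in the ratios was not tested, and in bulk samples fewer cells of a type and less RNA per cell cannot be told apart.

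Of 10215 genes with enough counts, 2736 had more footprints than their RNA level would give (26.8%, adjusted p under 0.05 in edgeR's quasi-likelihood test with the culture as a block) and 3166 had fewer (31.0%), 57.8% in either direction. Ratios here are footprint CPM over RNA CPM of the same culture after normalization, so at a ratio of 1 a gene has the same normalized level in both. The median log2 ratio was -0.04, with the middle 50% of genes between -0.72 and 0.52. The split depends on the scaling: with RLE size factors 2137 genes were higher and 3747 lower, and with library totals 2058 and 3843. Against a stricter null of a 2-fold difference, 319 genes were higher (3.12%) and 934 lower (9.14%), and with library totals 219 and 1239. The lower side was the longer one: the 5th percentile lay at -2.0 and the 95th at 1.23. Ratios above 1 in all 6 cultures were found for 245 of the 319, and ratios below 1 in all 6 for 894 of the 934. The file names place the footprint counts on coding sequence, while the region counted for RNA is not given in the sources used here, so a difference between cultures in 1 gene's ratio is firmer than a difference between genes.

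**Figure D1:**
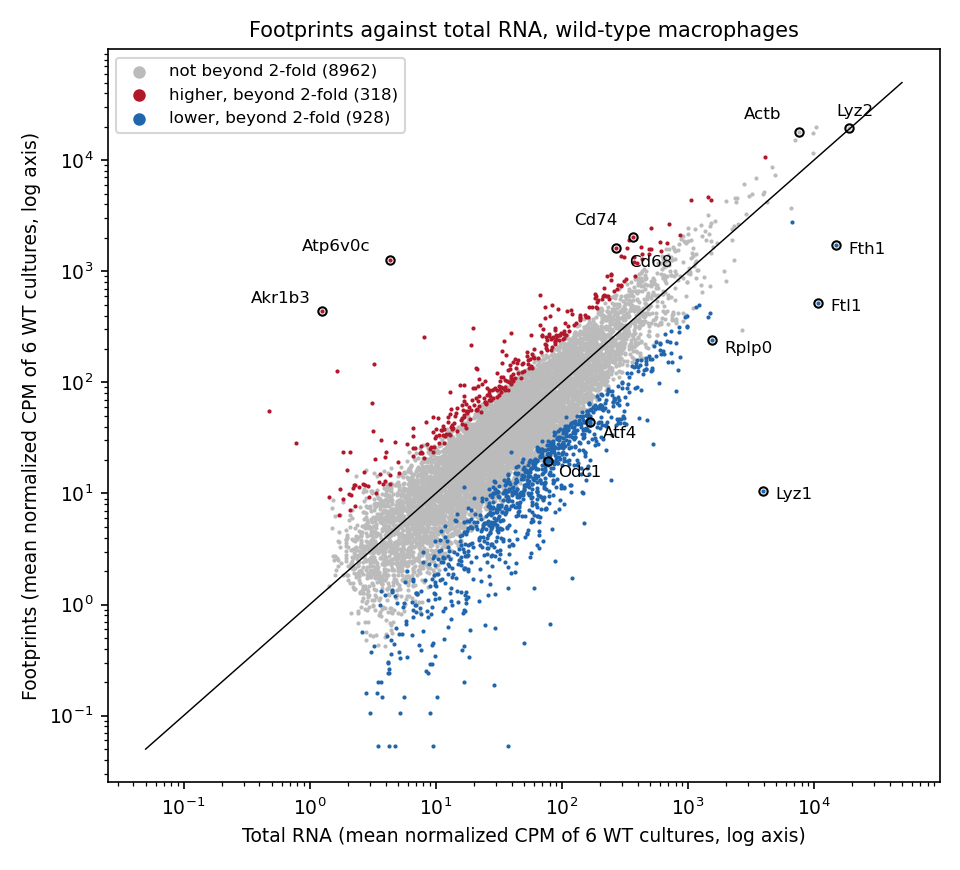
Mean normalized CPM of total RNA (x axis, log scale) and of ribosome footprints (y axis, log scale) over the 6 wild-type cultures, 1 point per gene for 10208 genes. The 318 red points were higher and the 928 blue points lower in footprints beyond 2-fold, the line marks equal levels, and 7 genes at 0 in all libraries of either kind are not drawn. Ftl1 and Fth1 lie far below the diagonal among the most abundant RNAs.

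Footprint and RNA levels correlated across genes with Pearson r from 0.63 in culture 6 to 0.872 in culture 4 (10215 genes, log scale, a description across genes that are not independent). The ratio itself correlated between cultures with r from 0.327 to 0.840, lowest for the pair of shallow batch 3 cultures and highest for cultures 1 and 3.

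The ferritin mRNAs, among the most abundant in these cells, had few footprints for their RNA. Ftl1 (chr7:45457944-45459886), the light chain of the iron storage protein ferritin, had 8696 to 13497 CPM of RNA (median 10490.4) but 363 to 1021 CPM of footprints (median 388). Its ratio ran from 0.0305 to 0.0795, with a median of 0.0440. The values for RNA and footprints did not overlap, and culture 5 had the highest ratio, apart from the others at 0.0305 to 0.0441. The fitted log2 ratio was -4.43 ± 0.15 (SE, n = 6 cultures, edgeR adjusted p = 1.15e-45). Fth1 (chr19:9980600-9985111), the heavy chain with the ferroxidase site, had 12497 to 17662 CPM of RNA (median 14420.4) against 1131 to 2337 CPM of footprints (median 1830.2). Its log2 ratio was -3.17 ± 0.13 (adjusted p = 3.51e-38), with ratios of 0.0826 to 0.139 and again no overlap.

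Of 7 genes with known iron-responsive elements 6 were tested: 3 were lower, all beyond 2-fold, and 1 was higher. The median log2 ratio of -1.39 fell in the gap between the 3 lower genes and the others, where no gene lay. The group took 2.2 to 3.26% of RNA counts and 0.177 to 0.369% of footprints. Slc40a1, the iron exporter ferroportin, whose mRNA carries the element before the coding sequence as the ferritins do, had a log2 ratio of -2.68 (143 footprints in all, ratios 0 to 0.346). Tfrc, the transferrin receptor that imports iron and carries its elements after the coding sequence, had ratios from 0.721 to 1.82 (median 1.05) and did not pass the test at 0.12 ± 0.17 (adjusted p = 0.547). The iron transporter Slc11a2, at -0.11, did not pass it either. In batches 1 and 2 alone the log2 ratios of Ftl1 and Fth1 were -4.53 and -3.25.

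Ribosomal protein mRNAs as a group had few footprints. Of 80 tested, 67 were lower, 3 higher and 10 passed in neither direction, and 29 were lower beyond 2-fold; the median log2 ratio was -1.08 against -0.04 for all genes. Together they held 4.1 to 5.68% of RNA counts and 1.62 to 2.80% of footprints, lower in all 6 cultures. The median of the group was between -0.83 and -1.13 in cultures 1 to 5 and -1.09 over batches 1 and 2. Rplp0, a protein of the ribosomal stalk and among the most abundant RNAs of the list, had 1231 to 2009 CPM of RNA (median 1442) and 123 to 318 CPM of footprints (median 272). It was lower in every culture, with no overlap and a log2 ratio of -2.65 ± 0.17 (adjusted p = 6.00e-18). Rps3a had ratios of 0.194 to 0.478 and a log2 ratio of -1.93 ± 0.15 (adjusted p = 1.32e-19).

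The lowest ribosomal protein mRNA was Rps23 at -3.68 ± 0.21 (150 footprints in all, none in the shallowest library), and the windows shown above belonged to genes at -1.11 (Rps6), -1.20 (Rps18) and -0.53 (Rpl15). The 3 exceptions that were higher were Rpl30 at 5.44, Rpl26 at 4.89 and Rps13 at 0.46. Rpl30 had 2.14 to 4.58 CPM of RNA beside 88.1 to 242 CPM of footprints, a very low RNA level for a ribosomal protein. Pseudogenes are a limit here: 62 of the 80 genes (77.5%) have a pseudogene named after them in RefSeq, against 2.90% of all genes tested, and reads shared with such copies may not have been counted. The median log2 ratio was -1.07 for genes with a named pseudogene and -1.15 for those without. Copies under other names were not counted, so these medians cannot measure the part of shared reads, which was not tested.

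Translation factors lay on both sides. Of 20 elongation factors and other TOP mRNAs 11 were lower and 3 higher (median -0.50), with 0.664 to 1.02% of footprints from 1.49 to 1.86% of RNA counts. Eef1a1, the factor that brings aminoacyl-tRNA to the ribosome, had 5526 to 7562 CPM of RNA (median 6972) and 2459 to 3248 CPM of footprints (median 2775). All 6 cultures were on the same side, and the log2 ratio was -1.28 ± 0.13 (adjusted p = 1.49e-15). The translocation factor Eef2 was lower too, at -0.86 ± 0.13 (ratios 0.384 to 0.699, adjusted p = 2.04e-08). Pabpc1, which binds poly(A) tails, was at -1.61 ± 0.15 (adjusted p = 9.83e-17), Tpt1 at -1.31 ± 0.14 (adjusted p = 9.45e-13) and Eef1b2, the exchange factor of Eef1a1, at -1.62. Gnb2l1, the ribosomal scaffold also called RACK1, was at -1.39. Hnrnpa1, a splicing factor, stood at the other end at 7.05, from 336 footprints and 22 RNA counts in all 6 cultures.

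Initiation factors, by contrast in sign, had a median of 0.36: 15 of 34 were higher and 7 lower. Eif5b, which joins the ribosomal subunits, had ratios of 2.17 to 4.42 and a log2 ratio of 1.59 ± 0.16 (adjusted p = 4.73e-15). The RNA helicase Eif4a1 was at 0.89, Eif1, which guards start codon choice, at 1.40, and the non-canonical scaffold Eif4g2 at -0.86. Aminoacyl-tRNA synthetases, which load tRNAs, had 17 of 20 higher and none lower (median 0.68, none beyond 2-fold); arginyl-tRNA synthetase Rars was highest at 1.13, and glutaminyl-tRNA synthetase Qars did not pass the test at -0.01 (adjusted p = 0.955).

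**Figure D2:**
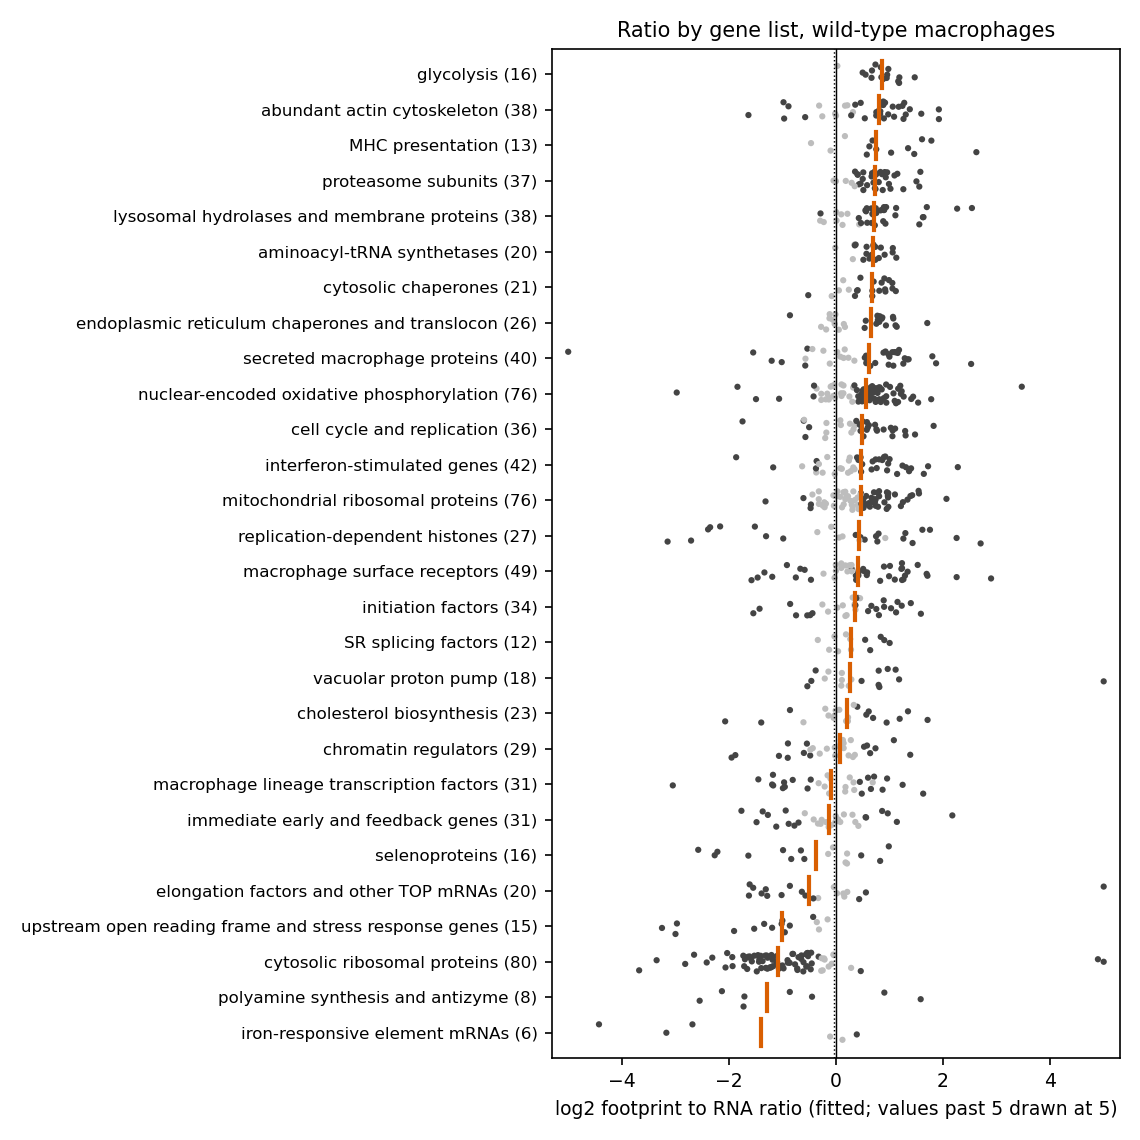
Log2 footprint to RNA ratio (x axis) of every tested gene in 28 groups (y axis), fitted over 6 wild-type cultures; dark points passed the test at an adjusted p under 0.05, orange bars are group medians, the solid line marks 0 and the dotted line the median of all genes at -0.04. Genes beyond a log2 ratio of 5 in size are drawn at the edge. Ribosomal proteins, stress response and polyamine genes centre well left of the line, and glycolysis, actin, MHC and proteasome genes right of it. Of the 6 iron genes 3 lie far left and the others near or right of the line.

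Genes with upstream open reading frames in stress pathways had few footprints. Of 15 tested 12 were lower, 5 of them beyond 2-fold, and none was higher (median -1.01). Atf4, the transcription factor of the integrated stress response, had 123 to 256 CPM of RNA (median 129) and 16.9 to 95 CPM of footprints (median 35.5). The ranges did not overlap, and the log2 ratio was -1.90 ± 0.18 (adjusted p = 7.02e-16). Its relative Atf5 was at -3.25 (21 footprints in all), the pro-apoptotic factor Ddit3, also called CHOP, at -3.0 ± 0.28 (33 footprints), and Slc35a4, known for a long upstream reading frame, at -2.97.

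The phosphatase subunits that reverse eIF2 phosphorylation, Ppp1r15b and Ppp1r15a, were at -1.53 and -1.34. Atf3, with the most RNA of the group, had ratios of 0.330 to 0.675 and a log2 ratio of -1.0 ± 0.14 (adjusted p = 3.43e-09). Cebpb, a macrophage transcription factor made as several isoforms from 1 mRNA, did not pass the test at -0.16 ± 0.15 (ratios 0.514 to 1.12, adjusted p = 0.384), and its relative Cebpa was lower at -1.19. The uncalled Ifrd1 and Trib3 were at -0.36 and -0.32.

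Polyamine genes went both ways. Of 8 tested, 6 were lower and 2 higher (median -1.29). Odc1, the rate-limiting enzyme of polyamine synthesis, had ratios of 0.114 to 0.370 (median 0.241) and a log2 ratio of -2.13 ± 0.23 (adjusted p = 5.47e-14). Azin1, the decoy that protects Odc1 from antizyme, was at -1.73 ± 0.16 (adjusted p = 1.58e-15), with culture 4 at a ratio of 0.558 and the others at 0.197 to 0.269. Sat1, which acetylates polyamines for export, was at -2.55 ± 0.19 (adjusted p = 1.68e-19).

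Oaz1, the antizyme that sends Odc1 to the proteasome and is read through a programmed frameshift, was on the other side at 1.58 ± 0.19 (adjusted p = 1.24e-10). Its ratio was above 1 in 5 cultures, with a median of 3.37 and a high of 4.31, and was 0.426 in culture 6, the shallowest. The second antizyme gene Oaz2 was lower at -1.71 and spermidine synthase Srm higher at 0.90.

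**Figure D3:**
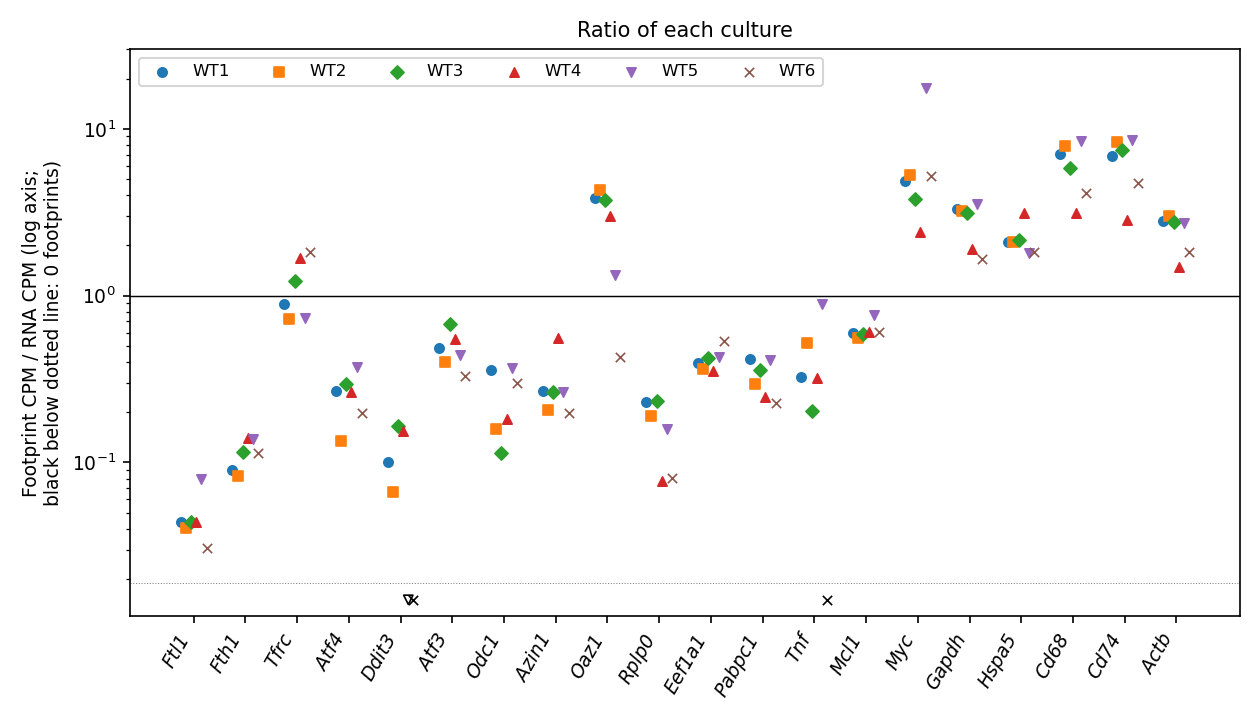
Footprint to RNA ratio (y axis, log scale) of 20 genes (x axis) in each of the 6 wild-type cultures, 1 marker per culture, with the line at a ratio of 1. Black markers under the dotted line had 0 footprints. Ftl1, Fth1, Rplp0, Atf4 and Odc1 lie below 1 in all 6 cultures, Cd68, Cd74 and Actb above it, and Oaz1 crosses it in culture 6.

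Selenoprotein mRNAs, which recode a UGA codon as selenocysteine, had 8 of 16 lower and 3 higher (median -0.37), beside 31.0% and 26.8% of all genes tested. Sepp1, the selenium carrier, was at -0.99 ± 0.14 (ratios 0.345 to 0.584), the glutathione peroxidase Gpx1 at -0.59 and Sepw1 at -2.57 with 25 footprints in all. Mitochondrial thioredoxin reductase Txnrd2 was higher at 0.99. Of replication-dependent histone genes, whose mRNAs lack a poly(A) tail, 13 of 27 were higher and 8 lower. The lower count lay near the share over all genes tested. Histone genes ranged from Hist1h3b at -3.14 (3 footprints in all) to Hist1h4a at 2.70. These genes are near-identical copies of each other, so their individual counts are uncertain.

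Metabolic and protein-handling enzymes had many footprints for their RNA. In glycolysis 15 of 16 genes were higher and none lower (median 0.86), and the group took 1.04 to 1.56% of footprints from 0.603 to 0.808% of RNA counts. Pkm2, the pyruvate kinase gene and the one with the most RNA, had 2043 to 2737 CPM of RNA (median 2289) and 3923 to 5019 CPM of footprints (median 4717). The ranges did not overlap, and the log2 ratio was 0.95 ± 0.12 (adjusted p = 1.63e-10). Gapdh was highest at 1.47 ± 0.14 (ratios 1.66 to 3.54, adjusted p = 1.50e-15), and aldolase Aldoa was at 1.18. Pfkl, the liver-type phosphofructokinase, was the exception at 0.03 (adjusted p = 0.902).

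Proteasome subunits were higher in 32 of 37 cases and lower in none (median 0.73). Psmb3, a subunit of the catalytic core, had ratios within 2.74 to 3.33 and a log2 ratio of 1.58 ± 0.15 (adjusted p = 8.55e-16), while the lid subunit Psmd8 did not pass the test at -0.04. Among nuclear-encoded genes of oxidative phosphorylation 50 of 76 were higher and 6 lower (median 0.56). Atp5b, the catalytic subunit of ATP synthase, was at 0.62 ± 0.13 (adjusted p = 2.29e-05), and Cox7a2l, which helps join respiratory complexes, was lowest at -2.97 ± 0.18 (adjusted p = 9.70e-27).

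Mitochondrial ribosomal proteins did not share the low ratios of the cytosolic ones: 38 of 76 were higher and 4 lower (median 0.46). The difference between the 2 kinds of ribosomal protein gene was not tested as a group. Mrpl52 was highest at 2.06 and Mrpl30 lowest at -1.32. Cytosolic chaperones had 16 of 21 higher and 1 lower (median 0.68), led by the co-chaperone Stip1 at 1.12, while the abundant Hspa8 did not pass the test at 0.14 (ratios 0.966 to 1.25, adjusted p = 0.354). Of 23 cholesterol synthesis genes and regulators 8 were higher and 3 lower (median 0.21), beside 26.8% and 31.0% of all genes tested. Dhcr7, a late enzyme of the pathway, was at 1.71. Insig1, which restrains the pathway when sterols are plentiful, was at -2.07 ± 0.20 (edgeR adjusted p = 2.55e-15).

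Lysosomal genes were mostly higher. Of 38 tested 29 were higher and 1, Npc2, was lower (median 0.71); the group went from 5.36 to 5.90% of RNA counts to 8.14 to 9.41% of footprints, higher in all 6 cultures. Cd68, a lysosomal membrane glycoprotein used as a macrophage marker, had 230.3 to 299.6 CPM of RNA (median 277) and 936 to 2408 CPM of footprints (median 1627). The RNA and footprint ranges did not overlap, and the log2 ratio was 2.54 ± 0.15 (adjusted p = 6.09e-23). The cathepsin Ctsb and prosaposin (Psap), the 2 with the most RNA, were at 0.92 ± 0.12 and 0.83 ± 0.12 (adjusted p = 2.75e-10 and 6.54e-09). Ctsd and Lamp1, at 0.21 and 0.10, did not pass the test.

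Folding factors and translocon components of the endoplasmic reticulum were higher in 15 of 26 cases and lower in 1 (median 0.66). Pdia3, a disulfide isomerase, was at 1.71 ± 0.14 (adjusted p = 6.97e-18). Hspa5, the chaperone BiP, was at 1.11 ± 0.13 (adjusted p = 3.63e-12), with a ratio of 3.13 in culture 4 and 1.79 to 2.14 elsewhere. Calnexin (Canx) did not pass the test at 0.05, and Dnajc3, an inhibitor of eIF2 kinases, was lower at -0.86.

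Secreted macrophage proteins were higher in 24 of 40 cases and lower in 6 (median 0.61). Apoe, the lipid carrier, had 49.2 and 57.7 CPM of RNA in the cultures of batch 3 and 1606 to 3399 CPM in the others. Its ratio lay between 2.69 and 4.99, with a log2 ratio of 1.80 ± 0.14 (adjusted p = 8.84e-21). Lgals3bp, a secreted glycoprotein, was highest at 2.52 ± 0.14 (adjusted p = 9.42e-30), and the C1q subunit C1qb and osteopontin (Spp1) were at 1.36 and 1.33. Lysozyme Lyz2 did not pass the test at -0.12 ± 0.13 (ratios 0.680 to 1.48, adjusted p = 0.444), although without culture 4 it did. Its neighbour and near-identical copy Lyz1 was listed with 131 footprints and 200107 RNA counts in all, a log2 ratio of -8.15; how reads were assigned between the copies is not given in the sources used here, so this value is uncertain.

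The cytokines at the low end of this group had few footprints. Tnf, the early inflammatory cytokine whose mRNA is held back in resting macrophages through AU-rich elements, had 19.6 to 44.6 CPM of RNA (median 24.4) and 0 to 23.7 CPM of footprints (median 8.45). The ranges overlapped and all 6 ratios were below 1; the log2 ratio was -1.55 ± 0.27 from 61 footprints (adjusted p = 6.47e-07). Il10 was at -1.20 with 19 footprints, and the chemokines Ccl9 and Ccl6 at -1.01 and -0.53. Ccl2 and Ccl4 were higher, at 0.64 and 0.89, and Ccl3, at 0.14, and Il1b, at -0.23, did not pass the test.

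Surface receptors were mixed: 27 of 49 were higher and 9 lower (median 0.41). Csf1r, the receptor for M-CSF, was at 0.83 ± 0.13 (ratios 1.26 to 2.77, adjusted p = 6.65e-08). An adaptor and a coreceptor gene were higher still, the Fc receptor gamma chain Fcer1g at 2.25 and the lipopolysaccharide coreceptor Cd14 at 1.71. Toll-like receptors lay on both sides: the DNA sensor Tlr9 was at 2.90 (ratio 26.1 in culture 5 and 3.73 to 8.51 elsewhere), the RNA sensor Tlr7 at 0.90, Tlr2 at 0.42 and the lipopolysaccharide receptor Tlr4 at -0.92. The chemokine receptor Ccr2 was lowest at -1.58 ± 0.19 (adjusted p = 1.11e-11), followed by the fungal sensor Clec7a at -1.46 and the interferon receptor chain Ifnar1 at -1.34.

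In antigen presentation 10 of 13 genes were higher and none lower (median 0.75). Cd74, the invariant chain of MHC class II, had 107 to 864 CPM of RNA and 589 to 3024 CPM of footprints, which overlapped between cultures though every ratio was at least 2.83. Its log2 ratio was 2.62 ± 0.16 (adjusted p = 8.99e-19), and the class II chains H2-Aa, H2-Eb1 and H2-Ab1 were at 1.78, 1.46 and 1.35. Of class I genes, B2m was at 0.58 and H2-K1 at 0.68, while H2-D1 did not pass the test at 0.17. The proton pump that acidifies these compartments had 8 of 18 subunits higher and 3 lower (median 0.26), with Atp6v0c highest at 8.19. Over all genes tested 26.8% were higher and 31.0% lower.

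Actin cytoskeleton genes had 26 of 38 higher and 5 lower (median 0.81), and went from 3.66 to 3.99% of RNA counts to 5.23 to 6.55% of footprints. Actb had 6584 to 9374 CPM of RNA and 13062 to 23375 CPM of footprints, without overlap. Its log2 ratio was 1.24 ± 0.13 (adjusted p = 2.63e-14). Profilin (Pfn1) and cofilin (Cfl1), which control actin assembly, were highest at 1.92 and 1.92. Thymosin beta-4 (Tmsb4x), which binds free actin, was lower at -0.89 ± 0.13 (adjusted p = 5.11e-09), while its relative Tmsb10 was higher at 1.06 (adjusted p = 7.19e-08). Also lower were 2 subunits of the actin-branching complex, Arpc1b at -0.98 and Arpc5 at -0.97. Ptma, prothymosin alpha, was lowest at -1.63. It was in the list and is counted among the 5 lower genes, but it is not an actin cytoskeleton gene.

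**Figure D4:**
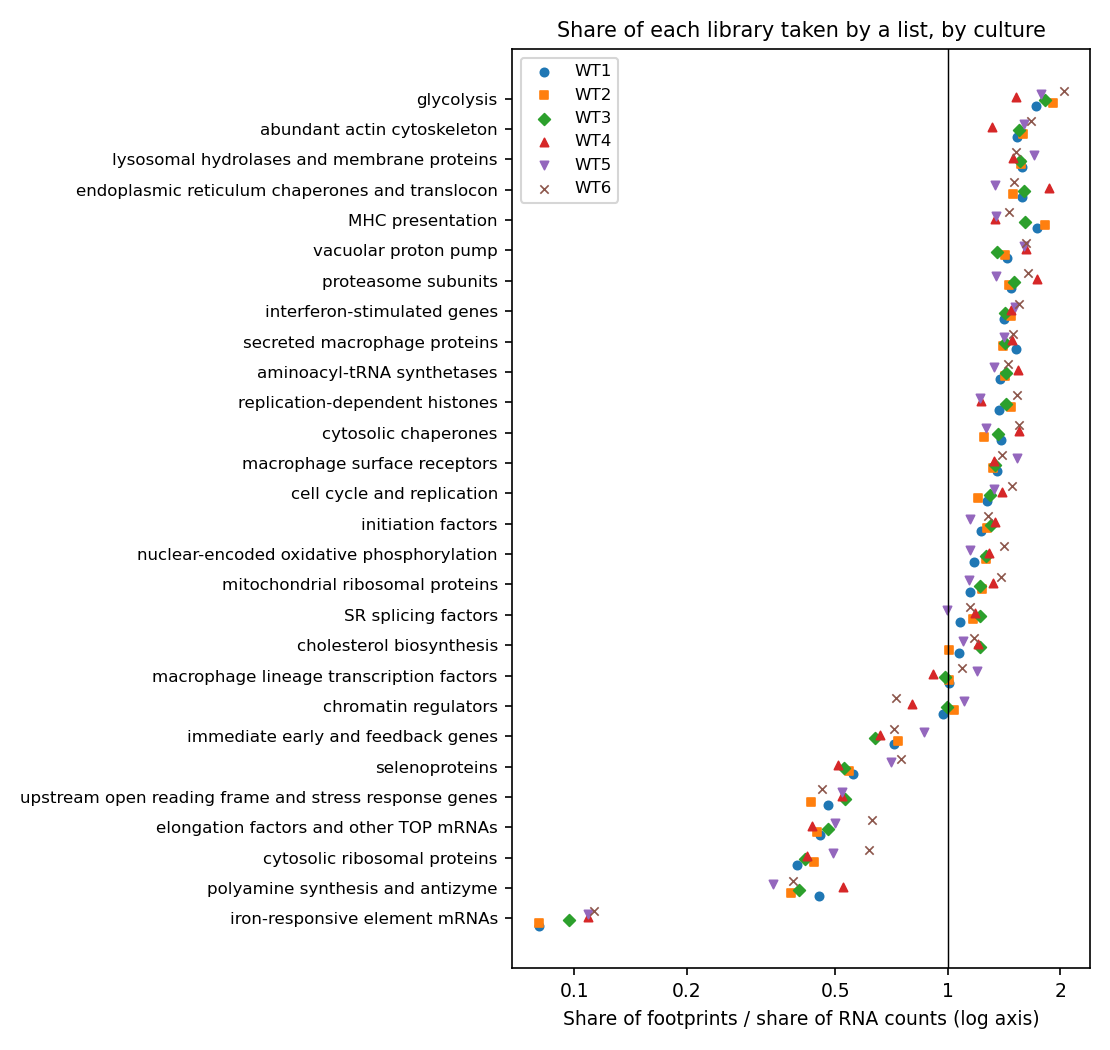
Share of footprint counts divided by share of RNA counts (x axis, log scale) for each gene group (y axis), 1 marker per wild-type culture, with the line at 1. The iron group lies at 0.0802 to 0.113 and ribosomal proteins at 0.394 to 0.616, while glycolysis lies at 1.52 to 2.04 and lysosomal genes at 1.5 to 1.70.

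Regulators were spread on both sides. Of 31 immediate early and feedback genes 6 were higher and 9 lower (median -0.14). Over all genes tested 26.8% were higher and 31.0% lower, so these counts alone do not set the group apart. Myc was highest at 2.17 ± 0.25 (adjusted p = 5.70e-12), from a low RNA level of 2.96 to 14.2 CPM, with a ratio of 17.7 in culture 5 and 2.39 to 5.31 elsewhere. The RNA decay factor Zfp36l2 was lowest at -1.77 ± 0.17 (adjusted p = 3.20e-15), with its relative Zfp36 higher at 0.97. The survival factor Mcl1 was lower at -0.70, the cytokine signalling inhibitor Socs3 at -1.48 and Klf6 at -0.78, and Fos, Jun and Junb, at 0.15, 0.31 and 0.04, did not pass the test.

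Of 31 transcription factors of the macrophage lineage 9 were higher and 11 lower, with a median of -0.10 that turns to 0.01 with limma voom. Sfpi1, which encodes PU.1, was highest at 1.63 ± 0.15 (ratios 1.55 to 5.59, adjusted p = 7.09e-15), followed by the oxidative stress factor Nfe2l2 at 1.25. The nuclear receptors Rxra and Nr1h3 were lowest, at -3.05 (59 footprints in all) and -1.45, and Zeb2 and Irf8 were lower at -0.81 and -0.53. Irf7 was lower at -1.17. Chromatin regulators had 6 of 29 higher and 8 lower, with a median of 0.08 that turns to -0.06 with RLE size factors and to -0.09 with library totals. Counts of lineage factors and chromatin regulators lay near the shares over all genes tested, 26.8% higher and 31.0% lower. The DNA demethylase Tet2 was lowest at -1.95 and the histone deacetylase Hdac1 highest at 1.39.

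Of 36 cell cycle and replication genes 22 were higher and 4 lower (median 0.48); Plk1, a mitotic kinase, was at 1.82, the replication clamp Pcna at 0.77, and Ccnd1, cyclin D1, did not pass the test at -0.18. Of 42 interferon-stimulated genes 24 were higher and 4 lower (median 0.47). Isg15, a ubiquitin-like modifier, had ratios of 3.57 to 6.09 and a log2 ratio of 2.28 ± 0.16 (adjusted p = 3.52e-23). Mx1, an antiviral GTPase, was lowest at -1.86 with 78 footprints in all. SR splicing factors had 5 of 12 higher and none lower (median 0.27), beside 26.8% and 31.0% of all genes tested.

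Non-coding RNAs of the list had no footprint counts. Footprints were counted on coding sequence, so their absence was no test of translation. Of 31 listed non-coding RNAs 22 had at least 10 counts in every wild-type RNA library, and the footprint counts of these 22 summed to 0. They included Malat1 with 267255 RNA counts over the 6 cultures, the RNA component of RNase MRP (Rmrp) with 201461 and Neat1 with 14044. Over the annotation, 111 of 114 long non-coding RNAs of that abundance (97.4%) and 55 of 10015 protein-coding genes (0.549%) were never in a footprint file, so absence from those files may come from the counted regions as well as from an absence of ribosomes, which cannot be told apart.

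At the high end of all genes stood genes with almost no RNA counts: Akr1b3, aldose reductase, had 0.982 to 1.77 CPM of RNA and 319 to 505 CPM of footprints (log2 ratio 8.43 ± 0.21, adjusted p = 7.63e-57). Atp6v0c, the membrane ring subunit of the proton pump, had 2.62 to 9.17 CPM of RNA and 896 to 2507 CPM of footprints (8.19 ± 0.22, adjusted p = 1.73e-28). Ass1, argininosuccinate synthase, was at 6.39, the calcium-binding S100a11 at 4.24, the DNA glycosylase Tdg at 5.00 and Raver1 at 4.19. Lrch4 had 790 footprints and no RNA count in any culture, at least 1876-fold higher against a floor of 3 counts over the group. Of the 18 genes higher by over 8-fold 7 (38.9%) had a named pseudogene, against 2.90% of all genes tested; the part of uncounted shared reads was not tested.

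At the low end stood genes with ample RNA and scattered footprints. March8, a membrane ubiquitin ligase, had 131 to 193 CPM of RNA and 56 footprints in all, for a log2 ratio of -4.04 ± 0.26 (adjusted p = 1.02e-20). The GTPases Arl5a and Rhoq were at -3.81 and -3.61, the decapping enzyme Dcp2 at -3.38, Gpbp1l1 at -3.56, and the genes named BC005537 and 6330578E17Rik at -4.07 and -3.36. Apobec1 itself, the gene deleted in the other arm, had 306 to 472 CPM of RNA and 61.7 to 113 CPM of footprints, ratios of 0.156 to 0.318 and a log2 ratio of -2.06 ± 0.16 (adjusted p = 1.45e-20). Genes named above that are neither a highest, lowest or most abundant member of a group, nor a textbook case of translational control, were chosen after their values were seen.

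With the 4 cultures of batches 1 and 2 alone the counts were 2704 higher and 2980 lower, and 312 and 901 beyond 2-fold, and none of the 28 group medians changed sign. The counts were 2 higher and 67 lower for ribosomal proteins, 12 lower for stress response genes, 2 higher and 5 lower for polyamine genes, 1 higher and 3 lower for the iron group, 15 higher for glycolysis, 33 higher for the proteasome, 30 higher for lysosomal genes and 27 higher and 5 lower for actin genes. A batch term passed the test for 1168 of 10215 genes (11.4%), and 586 (5.74%) were higher and 669 (6.55%) lower in batch 2 than in batch 1. Batch 2 is culture 4 alone, which the test assumes to vary like the cultures of batches 1 and 3, so culture 4 and batch 2 cannot be told apart. In that difference 14 ribosomal protein genes were lower and 13 higher, 5 of 13 antigen presentation genes (median -0.61), 7 of 31 lineage transcription factors and 7 of 29 chromatin regulators were lower with none higher, and 7 of 26 endoplasmic reticulum genes were higher with 1 lower. The largest single cases, picked after their values were seen, included Ucp2, a mitochondrial carrier whose ratio was 0.261 in culture 4 and 1.66 to 2.67 in cultures 1 to 3, and Rab1, a GTPase of vesicle traffic at 3.18 in culture 4 and 0.604 to 1.38 elsewhere. Of 1254 genes called in wild type and tested in KO, 1176 had the same sign between those batches in KO cultures and 510 also passed there. Over all 10042 genes tested in both genotypes the difference correlated with Pearson r = 0.248 across genes, and batch 1 of the KO arm is again 1 culture.

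Ratios in the KO cultures followed those of wild type across genes. Over 10042 genes tested in both genotypes the log2 ratios correlated with Pearson r = 0.930 and Spearman rho = 0.922 across genes, which are not independent. All 1234 wild-type genes beyond 2-fold that were tested in KO had the same sign there; 955 (77.4%) were also beyond 2-fold, and 73.3% of the 1303 KO genes beyond 2-fold were so in wild type. In KO cultures 222 genes were higher (2.20%) and 1092 lower (10.8%) beyond 2-fold. Ftl1 and Fth1 were at -3.95 and -2.69, Atf4 at -2.06, Odc1 at -1.93, Oaz1 at 1.18 and Cd68 at 2.04. The median of ribosomal proteins was -1.07 and that of glycolysis genes 0.84. Other groups moved further. Immediate early and feedback genes had 3 higher and 17 lower in KO (median -0.52, against -0.14 in wild type). Chromatin regulators had 5 higher and 13 lower (median -0.17, against 0.08). The iron group, of 6 genes only, had a median of -0.79 against -1.39. The median of all genes tested was -0.09 in KO and -0.04 in wild type. The share of all genes called in KO at this threshold is not given here. The differences of groups between genotypes were not tested.

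The ratio differed between genotypes for 1 of 10444 genes tested (0.00957%, a term for molecule by genotype in edgeR's quasi-likelihood test): Apobec1, whose log2 ratio in KO minus that in wild type was -5.36 ± 0.25 (adjusted p = 2.00e-27). Apobec1 is the gene that the KO mice lack. Its ratio in KO is therefore not that of an intact gene and is no measure of a change in its translation. At an unadjusted p under 0.05 the same test gave 493 genes, and DESeq2 also called Apobec1 alone. Without wild-type culture 4 the test called 4 genes, Apobec1 at -3.45, Nf2 at -1.27, Rpl41 at -0.79 and Rps3a at 0.69, and without culture 5 it called 2, Apobec1 and Ftl1 at 0.53 (adjusted p = 0.0258).

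**Figure D5:**
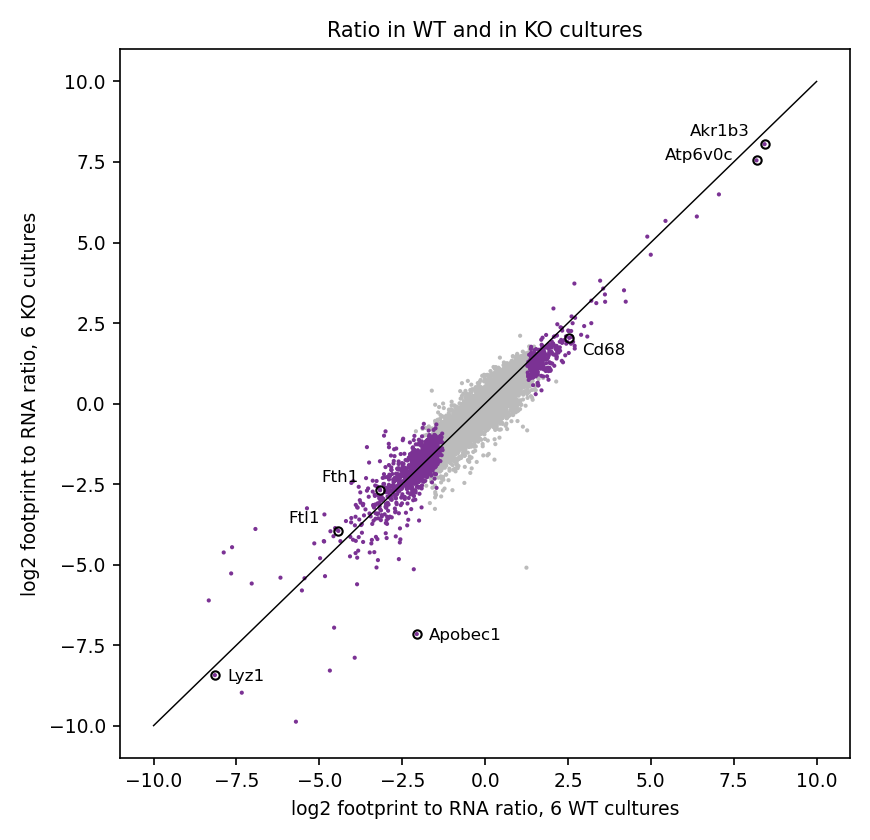
Log2 footprint to RNA ratio over 6 wild-type cultures (x axis) and over 6 KO cultures (y axis), 1 point per gene for 10040 genes tested in both, with the line of equality; purple points were beyond 2-fold in wild type, and 2 genes with a log2 ratio of 10 or more are not drawn. Ftl1, Fth1 and Lyz1 lie low and Atp6v0c high in both genotypes, and Apobec1 lies below the line.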

How the data were processed

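Ribosome footprints and total RNA of the same cultures were sequenced with the TruSeq Ribo Profile kit, per the labels' protocols. The authors deposited 1 table per library with raw counts per gene symbol, with no normalization. Per the submitters' processing notes, reads were handled with Trim Galore, Bowtie 1.1.2, TopHat2 2.1.0, Cufflinks 2.2.1, HTSeq, DESeq and DESeq2 on mm10, without a stated role or order, and strand use in counting is not given in the sources used here. Lines for reads not assigned to a gene were dropped: reads that did not map uniquely were 34.2 to 51.2% of the wild-type RNA counts and 50.9 to 74.3% of the footprint counts.

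A gene absent from a footprint table was set to 0 there. The RNA tables list 23337 symbols and 12660 appear in any footprint table; genes in no footprint table were left out of the tests. Genes were kept by edgeR's filterByExpr (minimum count 10), which left 171 genes with under 10 footprints over the 6 cultures. Libraries were scaled by TMM, and log2 footprint over RNA was fitted with edgeR 4.0.16 (quasi-likelihood, R 4.3.3) with the culture as a block. P-values were adjusted by Benjamini and Hochberg over all genes tested, at a threshold of 0.05, and glmTreat tested against 2-fold. The same numbers pair the libraries: deviations of a culture's footprints and RNA from the group means correlated with r of 0.160 to 0.437 in all 6 cultures, and the labels give each pair as 1 culture; the footprints of cultures 2 and 5 correlated best with the RNA of another culture of the same batch (3 and 6). Genotypes were compared by a molecule by genotype term with batch. Tests were checked on simulated counts. Alternatives were other scalings, filters, blocks, limma 3.58.1, DESeq2 1.42.0, subsets of batches and leaving out each culture.

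The members and gene lists were chosen with earlier results of these data known; 878 of 899 listed coding genes were tested. Genes were named by rule: the 10 highest and 10 lowest beyond 2-fold with the same sign in cultures 1 to 4 and at least 100 footprints (highest) or 1000 RNA counts and 50 footprints (lowest), in each list the highest, the lowest and the 2 with the most RNA, and textbook cases of translational control; a few genes are not reported here. Coordinates and start windows are RefSeq's (GRCm38.p6), matched by symbol for 99.4% of genes tested; symbols are those of the deposited tables, some of them older names.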

Additional observations from a re-analysis of the deposited data

Results flagged for a closer look

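Of 90 genes whose ratio was examined for a culture far from the others, 10 had such a culture, and so did 2 of the 28 gene groups. Chance alone gives about 1 in 20 for genes named without regard to their values. Some of the 90, such as Rab1, were named for their values, so these counts cannot be set against that rate. Culture 5, whose footprint library held 218074 counts, was the outlying one for 7 genes. Its ratio was 0.0795 for Ftl1 (0.0305 to 0.0441 in the others), 26.1 for Tlr9 (3.73 to 8.51), 17.7 for Myc (2.39 to 5.31), 0.668 for Zfp36l2 (0.191 to 0.310), 0.766 for Mcl1 (0.557 to 0.605), 96.3 for Raver1 (10.8 to 40.4) and 0 for BC005537 (0.0455 to 0.0703).

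Culture 4, the only wild-type culture of batch 2, stood apart for 3 genes, with a ratio of 0.558 for Azin1 (0.197 to 0.269 in the others), 3.13 for Hspa5 (1.79 to 2.14) and 3.18 for Rab1 (0.604 to 1.38). Among groups, the share of footprints over the share of RNA was 0.627 in culture 6 for elongation factors and other TOP mRNAs (0.433 to 0.499 in the others) and 1.54 in culture 5 for surface receptors (1.32 to 1.40). The part of depth and batch in these values was not tested.

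Between genotypes, the ratio of Apobec1 differed, with a log2 ratio in KO minus that in wild type of -5.36 (edgeR adjusted p = 2.00e-27). As the KO mice lack this gene, the value is no measure of a change in its translation.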

How the results depend on the processing

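Leaving out 1 culture at a time gave 2129 to 2857 genes higher and 2736 to 3313 lower, 233 to 474 higher and 784 to 980 lower beyond 2-fold, and 1 to 4 genes that differed between genotypes. With at least 10 counts in 4 libraries of each kind, 5129 genes were tested and 1552 were higher, 1633 lower, 152 higher and 341 lower beyond 2-fold. In the cultures with at least 1000000 footprint counts, which are cultures 1 and 4 only, 1783 were higher and 140 higher beyond 2-fold. Depth and the smaller number of cultures cannot be told apart there. Genes higher beyond 2-fold numbered 117 with DESeq2 and 487 in batch 1 alone. Among genes that overlap no other gene, an alternative chosen after seeing the data that leaves fewer genes, the counts were 1528 and 1639, and 208 and 497 beyond 2-fold.

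Without the pairing by culture (molecule only), 2116 genes were higher and 2683 lower, and 207 were higher beyond 2-fold. With a batch term in place of the culture block the counts were 2971 and 3298, and the difference between genotypes was called for 1 gene without the block.

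The median log2 ratio of all genes was -0.19 with RLE size factors and -0.21 with library totals, against -0.04. Of 3051 values of named genes under alternatives, 2897 kept direction and call, 102 lost the call (28 genes), 51 gained it (15 genes) and 1 reversed: Rab1 was at -0.37 in batch 1 alone. Eprs, Emr1, Psmd2, Hist1h1c, Hspe1, Mdm2 and Atp5a1 were among those that lost it when 1 culture was left out. An offset for coding over transcript length was planned and was not run. Depth limits the low side: 3 counts stand for 101 CPM in the shallowest footprint library.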

Other observations

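Markers of other cell types could also be followed. Of 15 neutrophil markers 11 were tested, and 7 were higher and 1 lower in footprints, with a median log2 ratio of 0.93. Over all genes tested 26.8% were higher and 31.0% lower. In batches 1 and 2 only 6 of the markers were tested, and 3 were higher and none lower. Their summed RNA was higher in cultures 4 to 6 than in cultures 1 to 3. Some may therefore have passed the count filter only through those cultures. Ngp, a neutrophil granule protein, had 0 to 45.1 CPM of RNA and 0 to 344 CPM of footprints, with a log2 ratio of 2.33 ± 0.30 (edgeR adjusted p = 1.05e-10). S100a9, an alarmin of neutrophils and monocytes, had 0.0823 to 216 CPM of RNA and a log2 ratio of 0.67 ± 0.24 (adjusted p = 0.0154). Cox6a1, a cytochrome oxidase subunit picked after its values were seen, had a ratio of 1.1 in culture 4 and 1.19 in culture 6, and 2.80 to 4.38 in the others.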
